A study of Mus musculus with 221 samples.

Results

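The SR splicing factors are RNA-binding proteins whose arginine- and serine-rich tail gives the family its name. They bind exons of nuclear pre-mRNA, recruit the spliceosome to nearby splice sites and accompany the mRNA into later steps such as export. Many SR genes can also include a cassette exon that carries a stop codon, called a poison exon. Such a transcript is a substrate of nonsense-mediated decay (NMD), the pathway that degrades mRNA with an early stop, and SR genes are known to use it to adjust their own level. Transcripts that keep an intron are a further non-coding form of these genes.

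The 10 members were Srsf1, Srsf2, Srsf3, Srsf4, Srsf5, Srsf6, Srsf7, Srsf9, Srsf10 and Srsf11, chosen by gene symbol from 78317 genes. They held 85 of the 278369 transcripts in the annotation. Of these 85 transcripts, 29 were annotated as protein coding, 26 as retained intron, 15 as NMD and 15 as coding genes' transcripts with no defined coding sequence, called "other" in the class shares that follow. An estimate above 0 was present for 81 of them in the cells kept, and 70 had at least 10 counts.

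Haemogenic endothelium (HE), the specialised endothelium that gives rise to blood, was collected from the aorta-gonad-mesonephros (AGM) region and the yolk sac (YS) of untreated mouse embryos bred from Gfi1 GFP and Runx1b RFP reporter mice (C57BL/6JOlaHsd) and wild-type CD-1 females. Which reporter alleles each cell carried is not given in the sources used here. Single sorted cells were amplified by Smart-seq2, and that full-length cDNA was read by nanopore sequencing in 3 runs, each of which held cells of every cluster. The HE gate selected RUNX1+, KIT-, CDH5+, CD41- and CD45- cells of the AGM, and RUNX1+, KIT+, CD31+, CD41- and CD45- cells of the YS, with or without GFI1, so the populations differed in the gate as well as the tissue. HE-AGM comprised an early cluster (c3) and a late one (c4), HE-YSA an early (a1) and a late one (a2), and HE-YSP likewise b2 and b3. A further AGM-side cluster, c5, carried the label HE-Hb, and p1 and p2 were YS progenitor clusters skewed to lympho-myeloid and erythro-myeloid output. The YS libraries were labelled E9, E9.5 or E10.5 except that of 1 a1 cell, whereas the library names of nearly all AGM cells give no stage.

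Of the 221 cells, 208 had at least 17595 estimated counts and were kept: 49, 52 and 49 of HE-AGM, HE-YSA and HE-YSP, 21 of c5, 17 of p1 and 20 of p2. Their totals ran from 18131 to 125339, with medians of 59311, 34484 and 33297 in the HE populations (where 3 values stand together they are those of HE-AGM, HE-YSA and HE-YSP, in that order). No embryo was named, so each population counted as 1 sample, no test was possible, and every interval given in brackets is a 95% interval for counting error only. AGM and YS cDNA came from different cDNA projects, and tissue and project cannot be told apart. Among the YSA cells kept, 2 had AGM in their library name and 1 came from another project. Endothelial markers summed to 1303, 1061 and 1093 CPM (counts per 1000000 of the population's total), and arterial markers to 1217, 1113 and 148 CPM. YS plexus markers summed to 1.8, 111 and 1164 CPM. Erythroid markers reached 188, 39.6 and 20.6 CPM, with up to 9759 CPM in a single c3 cell. Hemogenic markers summed to 181, 134 and 29.9 CPM and megakaryocyte markers to 3.0, 2.62 and 43.7 CPM, while mesenchymal markers reached 172 CPM in c5 and at most 30.9 CPM in the other clusters. Of the megakaryocyte genes, 2 of 3 were at 0 in HE-YSP, and of the mesenchymal genes 3 of 4 were at 0 in c5. The part of these markers in the results was not tested.

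Short stretches across splice junctions show which exon is joined in the isoforms that the results turn on. Several of them are shared with further isoforms of the same gene, as given beside each. They are from the mouse GENCODE M21 annotation on GRCm38, where all 85 member transcripts matched by identifier and length, and are written 5′ to 3′ on the gene's strand. In Srsf6 (chr2:162931528-162937121, plus strand) the cassette exon is at chr2:162932815-162933082 and spans 268 bases. Capitals mark the exon that follows the same upstream exon, without the cassette in Srsf6-203 (protein coding) and with it in Srsf6-201 (NMD).
Srsf6-203: gctacggaagccgcaGTGGTGGAGGTGGAT
Srsf6-201: gctacggaagccgcaTGACCAATGGGGCTG
The coding frame of Srsf6-201 runs 149 bases into this exon and ends at chr2:162932964-162932966, 534 bases before the last exon junction. The stop is shown in capitals.
Srsf6-201: atgacgacagcagccttttgccatTAGacg
The junction with the cassette is also in Srsf6-202, which is annotated as protein coding, and the stretch with the stop is in Srsf6-202 and Srsf6-204.

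Srsf3 (chr17:29032628-29043373, plus strand) has a cassette exon of the same kind, 456 bases at chr17:29039454-29039909. Its stop, at chr17:29039485-29039487, lies after 31 coding bases and 548 bases before the last junction. The first line joins the exons without it (Srsf3-202, protein coding), the second joins the cassette (Srsf3-201, NMD) and the third shows the stop.
Srsf3-202: tccacctcggcgcagATCCCCAAGAAGGAG
Srsf3-201: tccacctcggcgcagAGTCACCATCATGTC
Srsf3-201: atcatgtctcttctcaccaccctcTGAatc
The junction of Srsf3-202 was also found, base for base, in Srsf3-208 and in the processed pseudogene Gm9761. That of Srsf3-201 is in Srsf3-203 as well, and its stop in Srsf3-203, Srsf3-204 and Srsf3-206.

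Not every transcript annotated as retained intron keeps an intron of a coding isoform. Srsf6-204 does, since its exon at the cassette spans both flanking introns as well. Srsf4-201, Srsf11-218 and Srsf3-205 contain 0 such introns. Srsf4-201 and Srsf11-218 have a first exon that is in no coding isoform, and Srsf11-218 also ends before the last exons of Srsf11-202. The first exon of Srsf4-201 is at chr4:131885208-131886304 (1097 bases, plus strand) and that of Srsf11-218 at chr3:158023243-158023669 (427 bases, minus strand). The first exon of Srsf3-205 (chr17:29039518-29040813) begins within the Srsf3 cassette and runs through the intron after it into the next coding exon. Of its 1296 bases, 1257 are in no coding isoform. For the Srsf4 and Srsf11 isoforms, capitals mark the last bases of the exon before the shared one, in the coding isoform first and in the retained-intron isoform second.
Srsf4-202: GGATCTGAAGAACGGgtatggctttgtgga
Srsf4-201: AGTTGTAGGACAAAGgtatggctttgtgga
Srsf11-202: TACCATATGCTGAAGgagttattcctgatg
Srsf11-218: AAAAATCGAGTACAGgagttattcctgatg
The Srsf4-201 stretch is also in Srsf4-203 and Srsf4-204, that of Srsf11-202 in Srsf11-201, Srsf11-204 and Srsf11-209, and that of Srsf11-218 in Srsf11-206 and Srsf11-212.

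**Figure D1:**
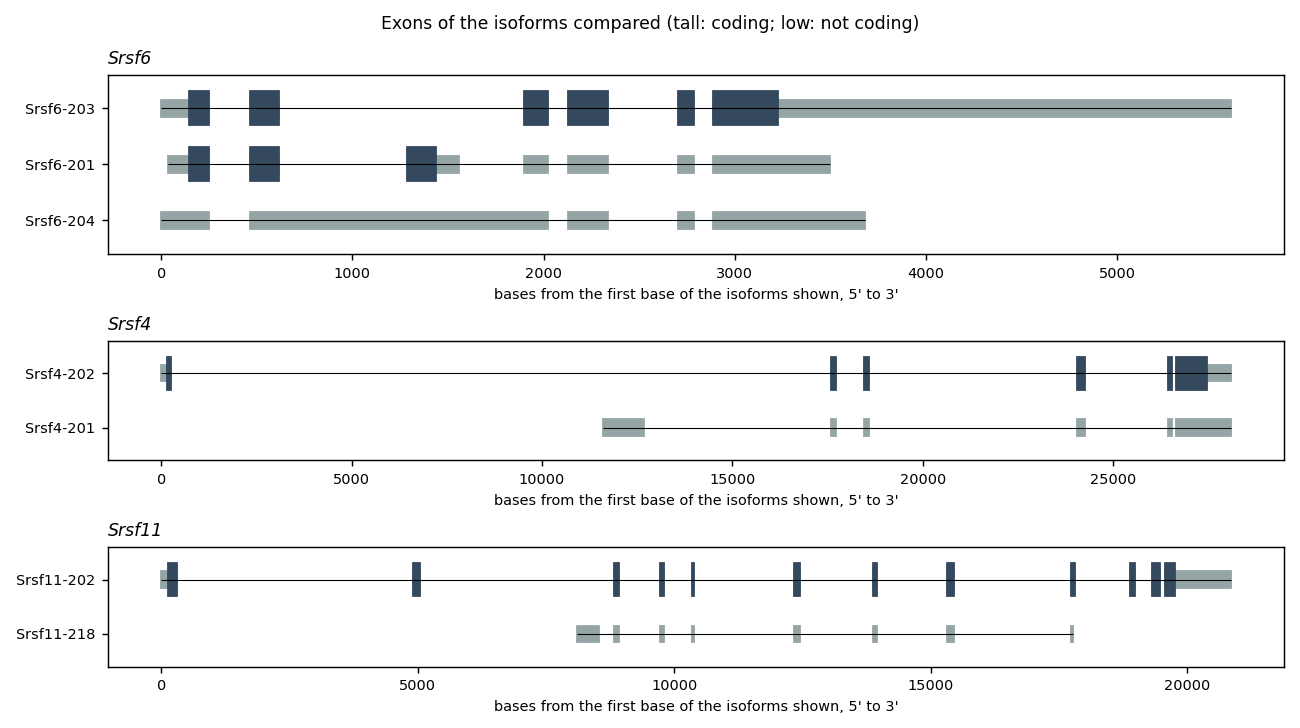
Exons of the main Srsf6, Srsf4 and Srsf11 isoforms by distance in bases from the first base of the isoforms shown, with tall boxes for coding and low boxes for non-coding stretches. Srsf6-201 carries the 268-base cassette exon, Srsf6-204 spans it with both introns, and Srsf4-201 and Srsf11-218 start at an exon that is in no coding isoform.

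Several members differed in level between the tissues. Srsf1, which binds purine-rich exonic enhancers, Srsf2, a factor bound at exon enhancers and a recurrent site of mutation in myeloid disease, and Srsf3 and Srsf9 exceeded in HE-AGM their level in either YS population. Srsf7, which works in export as well as splicing, was lower in HE-AGM than in HE-YSA. A member was called when the summed CPM differed by at least 1.5-fold and in the same direction in each of the 3 runs. By that rule HE-AGM had 4 members higher and 1 lower than HE-YSA, against 30.6% and 17.3% of the 8968 genes tested, so the count was close to the background. Against HE-YSP 4 were higher and 0 lower, against 33.8% and 18.8% of 8803 genes. The median log2 ratio over all genes was itself 0.26 against HE-YSA and 0.31 against HE-YSP, and that of the members was 0.56 and 0.49. The members together held 2610, 2310 and 2153 CPM, a log2 ratio of 0.18 and 0.28.

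Srsf2 separated the tissues most clearly. Its level was 550 CPM in c3, 638 in c4 and 629 in c5, and on the YS side 230 in a1, 203 in a2, 224 in p1, 181 in b2, 281 in b3 and 330 in p2. Split by run, the 9 AGM-side values lay between 477 and 712 CPM and the 18 YS values between 123 and 410. Srsf2 was the only member whose values in this split did not overlap, a pattern held by 2.1% of all genes in either direction. The log2 ratio was 1.45 (1.30 to 1.61) against HE-YSA, from 1.02 to 2.08 over runs, and 1.35 (1.19 to 1.51) against HE-YSP, from 0.64 to 1.96. The median cell had 542, 190 and 245 CPM. Srsf2 had at least 1 estimated count in 100%, 90.4% and 91.8% of cells. With 49, 51 and 48 cells thinned to 18000 counts it was seen in 98.0%, 86.3% and 87.5%, and a mean of 9.61, 4.02 and 4.44 counts per cell. The overlapping gene Mettl23 shares 460 identical bases with Srsf2 and had 187, 82.7 and 84.2 CPM in the 3 populations, so reads within those bases could be divided between them.

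Srsf1 had 289 CPM in c3, 286 in c4 and 301 in c5, against 106 in a1, 131 in a2, 151 in p1, 97.5 in b2, 157 in b3 and 227 in p2. The 9 AGM-side run values, 192 to 352 CPM, overlapped the 18 of the YS side, 15.8 to 258, where p2 came nearest. Its log2 ratio was 1.27 (1.06 to 1.48) against HE-YSA, from 1.00 to 1.40 over runs, and 1.18 (0.97 to 1.41) against HE-YSP, from 0.42 to 1.84. The call against HE-YSP ended in run 2 alone (0.42) and in late clusters only (0.87). Protein-coding transcripts held at least 96.1% of its counts in every HE population.

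Srsf9, a small family member with a short tail, also set the YS populations apart. It had 187 CPM in HE-AGM, 106 in HE-YSA but 68.8 in HE-YSP. The log2 ratio was 0.82 (0.59 to 1.06) and 1.44 (1.15 to 1.74) for HE-AGM over HE-YSA and HE-YSP, and -0.62 (-0.97 to -0.29) for HE-YSP over HE-YSA. It was the 1 member called lower in HE-YSP than in HE-YSA, where 9.32% of 6587 genes were, while 0 members were called higher, against 9.0%. Among cells with totals from 30000 to 60000 the ratio to HE-YSA was 0.22 and the call ended.

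Srsf6, a close relative of Srsf4 and Srsf5 with paired RNA recognition motifs, and Srsf7 ran the other way. Srsf7 had 460 CPM in c3, 487 in c4 and 459 in c5, and 745 in a1, 756 in a2, 896 in p1, 545 in b2, 780 in b3 and 992 in p2. Its log2 ratio to HE-YSA was -0.67 (-0.78 to -0.57), and the call was kept in 12 of 16 alternative settings, with -0.41 in run 1 alone. That to HE-YSP was -0.49, which missed the 1.5-fold limit. Srsf6 had 361 CPM in c3, 344 in c4 and 344 in c5, and 529 in a1, 522 in a2, 682 in p1, 445 in b2, 566 in b3 and 610 in p2. Its log2 ratio of -0.57 to HE-YSA and -0.51 to HE-YSP passed neither limit. Over runs the ratio of Srsf6 to HE-YSA ranged from -0.69 to -0.44. That to HE-YSP ranged from -1.06 to 0.0012, so 1 run showed no difference. Over the 9 clusters the log2(CPM + 1) of Srsf6 and Srsf7 had a Pearson r of 0.966, and that of Srsf1 and Srsf2 0.949. These are descriptions over 9 points that share libraries, runs and depth.

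The remaining members were not called. Srsf11, an SR protein that binds the U2AF complex, had 296, 337 and 306 CPM, and Srsf10, known as a splicing repressor, 85, 80.4 and 78.3 CPM. Srsf4, which has the longest tail of the family, had 94.9, 69.8 and 70.0 CPM, with runs that differed in sign. In the order of the 9 clusters, all 8 pairs of neighbours had overlapping run values for each member except Srsf2, Srsf3 and Srsf7, where 7 of 8 did.

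**Figure D2:**
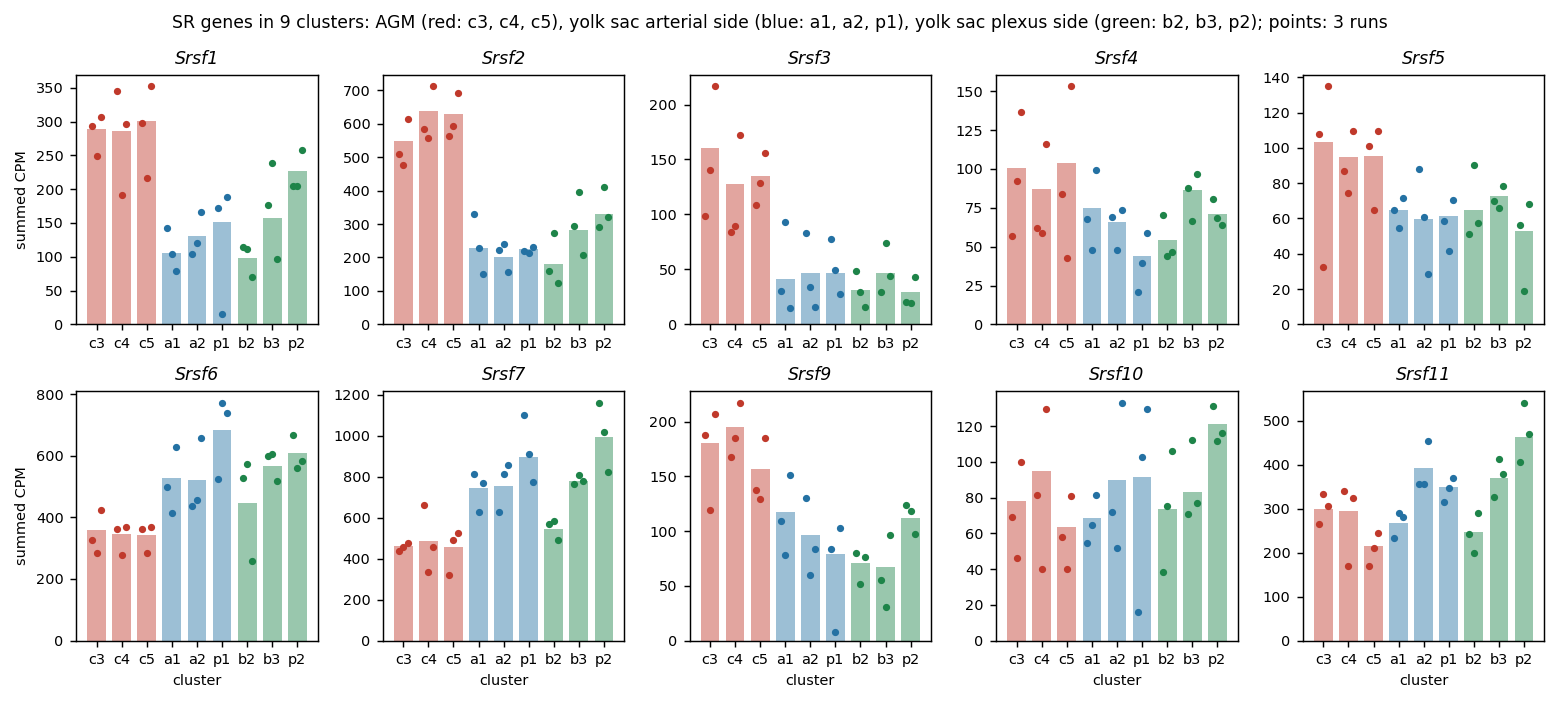
CPM of each member in the 9 clusters on linear axes from 0, with bars for the value over all kept cells of a cluster and a point for each of the 3 nanopore runs (red for c3 to c5, blue for a1, a2 and p1, green for b2, b3 and p2). Srsf2 had 477 to 712 CPM in the AGM-side runs and 123 to 410 CPM in the YS runs, while Srsf6 and Srsf7 were higher on the YS side with overlapping values.

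Processed pseudogenes, intronless copies of an mRNA elsewhere in the genome, touched 4 members. Transcripts of copies with at least 90% identity over at least 300 bases held 78.6% of the counts of Srsf3 and its 5 copies together, 69.6% for Srsf5 and its 1 copy, 24.8% for Srsf10 and 3.69% for Srsf7. No such copy was found for the other 6 members. Srsf3 itself, the smallest SR protein and an adaptor for mRNA export, had 147, 44.3 and 38.7 CPM. Srsf3-ps, 98.3% identical over 1298 bases, had 327, 128 and 99.4 CPM, and Gm9761, 99.6% identical over 492 bases, had 60.1, 159 and 163 CPM. These 2 copies thus differed between the populations in opposite directions. The log2 ratio of Srsf3 was 1.73 and 1.92 alone and 0.68 and 0.82 with its copies, and it was called both ways. Over runs 1, 2 and 3 the ratio of Srsf3 alone to HE-YSA was 0.57, 0.92 and 3.70, and in run 1 alone the call ended. Srsf5 had 99.7, 62.1 and 68.8 CPM, whereas its copy Gm12966 had 117, 262 and 209 CPM. The ratio of Srsf5 was 0.68 and 0.54 alone, with runs of differing sign, and -0.58 and -0.36 with the copy, so its direction cannot be given. The levels and isoform shares of Srsf3 and Srsf5 are therefore uncertain. The ratio of Srsf10 also changed sign, from 0.08 and 0.12 alone to -0.10 and -0.05 with its copies, with intervals that all include 0.

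**Figure D3:**
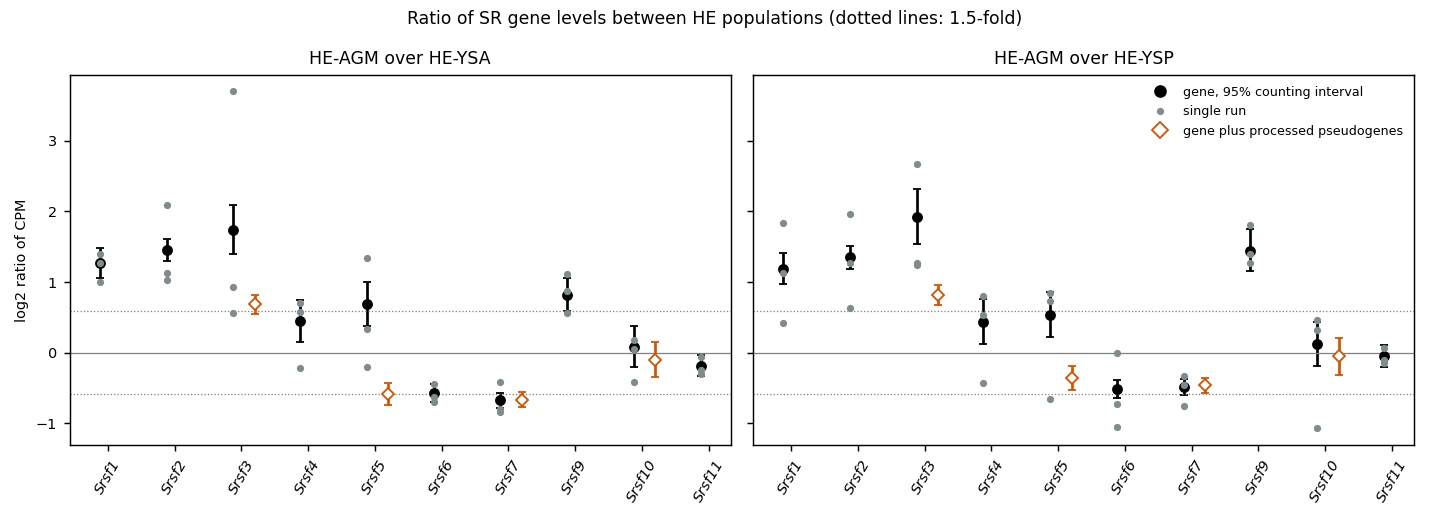
Log2 ratio of CPM for HE-AGM over HE-YSA and over HE-YSP for each member alone and with its processed-pseudogene copies, with 95% counting intervals, grey points for single runs and dotted lines at 1.5-fold. Srsf1, Srsf2, Srsf3 and Srsf9 lie above 0, Srsf6 and Srsf7 below it, and Srsf5 and Srsf10 change sign when their copies are added.

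In isoform use, Srsf6 gave the clearest difference. The poison-exon transcript Srsf6-201 held 13% of Srsf6 counts in HE-AGM (11.1 to 15), but 46.4% (43.3 to 49.6) and 37.1% (33.8 to 40.4) in HE-YSA and HE-YSP. By run its share was 18.2%, 16.6% and 8.72% among HE-AGM cells, 52.9%, 42.7% and 43.8% among HE-YSA cells, and 40.6%, 33.6% and 36.4% among HE-YSP cells. Every HE-AGM run lay below every YS run, and the differences were -33.4 and -24.1 percentage points. A class share was called when it differed by at least 10 points and in the same direction in each run. Of the 9 members with an NMD isoform, Srsf6 was the 1 called lower in each comparison, where 13.9% of the genes tested were called lower both times, and 0 were called higher, against 8.57% and 7.91%. The call held under all 17 alternative settings for both pairs, with differences from -39.4 to -23.9 points against HE-YSA and -29.8 to -16.4 against HE-YSP.

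The same order was seen across clusters. Srsf6-201 held 13.2% of the gene in c3, 12.7% in c4 and 19.9% in c5, against 52.6% in a1, 41.4% in a2, 44.4% in p1, 39.5% in b2, 35.2% in b3 and 42.2% in p2. Of the single runs of a cluster, the highest c3 or c4 value was 21.8% and the lowest YS value 24.9%, while a c5 run reached 32.1%. In cells with at least 5 Srsf6 counts the median share was 11.3% in 45 HE-AGM cells, 42.9% in 49 HE-YSA cells and 36.4% in 45 HE-YSP cells. The share passed 50% in 2, 18 and 8 of these cells. In the 3 YSA cells with a divergent library name or project, Srsf6-201 took 18.3 of 25, 9.4 of 17 and 2.2 of 13 counts.

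The level of each Srsf6 isoform shows which of them differed. Srsf6-201 had 46.0, 244 and 187 CPM, a log2 ratio of -2.41 (-2.68 to -2.14) and -2.03 (-2.31 to -1.74). Srsf6-204, the retained-intron transcript, had 239, 244 and 285 CPM, a log2 ratio of -0.03 and -0.25, so its higher share of the gene in HE-AGM (67.6%, against 46.4% and 56.5%) went with a level within 1.5-fold. Srsf6-203, which encodes the full protein, had 67.9, 33.1 and 31.7 CPM. The coding class held 19.4%, 7.19% and 6.40% of the gene, called higher against HE-YSP and not against HE-YSA, where the runs differed in sign. Among cells with totals from 30000 to 60000 this coding difference was -0.34 points for both pairs, whereas the Srsf6-201 difference was still -24.8 and -16.4 points. Estimates per cell that were not within 1e-06 of a whole number held 78.9% of Srsf6 counts, since a read can fit several of these overlapping transcripts. An even division between Srsf6-201 and Srsf6-204, with estimates that differed by at most 0.1% of their sum and held over 50% of the gene, was seen in 0 of 45, 7 of 49 and 9 of 45 cells, and without those cells Srsf6-201 held 13%, 46.7% and 35.2%.

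**Figure D4:**
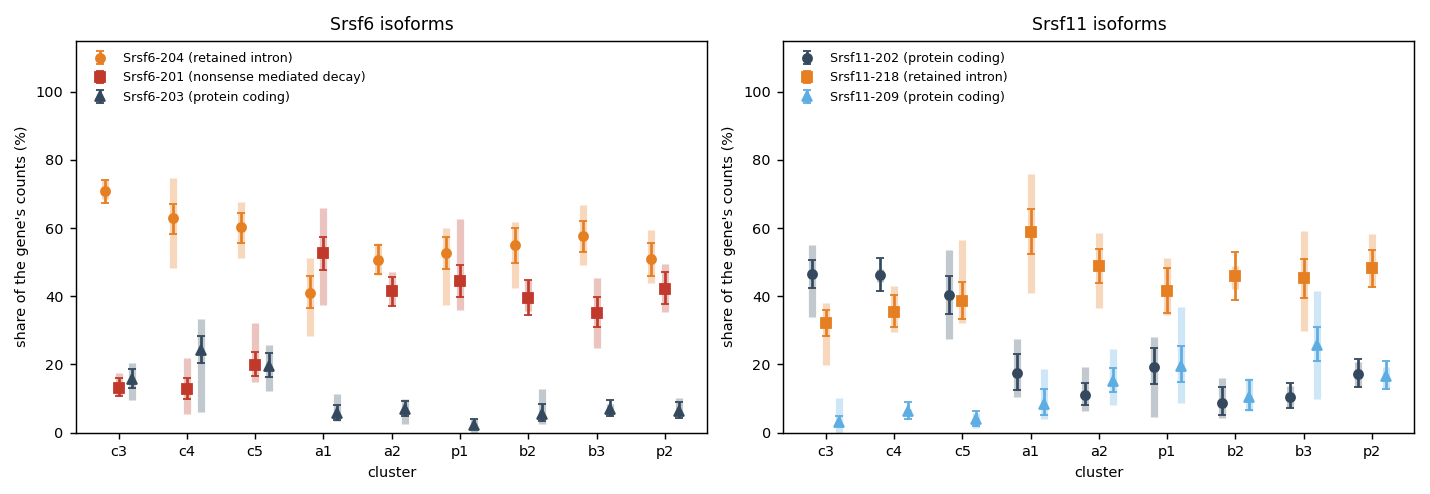
Share of the gene's counts on 3 isoforms each of Srsf6 and Srsf11 in the 9 clusters, in percent, with 95% counting intervals as capped bars and the range over the 3 runs as pale bars. Srsf6-201 held 12.7% to 19.9% in the AGM-side clusters and 35.2% to 52.6% in the YS clusters, and Srsf11-202 held 40.2% to 46.5% and 8.6% to 19.2%.

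Srsf11 differed in a similar way by tissue, between a full-length coding transcript and shorter ones. Srsf11-202 (2654 bases, protein coding) held 46.5% of the gene in c3, 46.3% in c4 and 40.2% in c5, and 17.3% in a1, 11% in a2, 19.2% in p1, 8.6% in b2, 10.6% in b3 and 17.2% in p2. Its level was 138, 44.6 and 29.9 CPM, a log2 ratio of 1.62 (1.29 to 1.98) and 2.20 (1.78 to 2.65). Srsf11-218 (1074 bases), with a first exon that is in no coding isoform, held 33.6%, 52.5% and 45.6% of the gene. Srsf11-209 (769 bases), also annotated as protein coding, held 4.3%, 12.9% and 19.4%. The coding class thus held 51.5%, 29.2% and 31.6%, differences of 22.3 and 19.9 points, of which the first was 3.24 points in run 1 alone. The retained-intron class held 44.3%, 67.1% and 64.4%, called lower against HE-YSP but not against HE-YSA, where run 1 had a difference of 0.28 points. Srsf11-218 itself differed by -0.82 points from HE-YSA in run 1 and by -0.89 points from HE-YSP in run 3. The median share of coding transcripts in cells with at least 5 Srsf11 counts was 51.3% in 43 HE-AGM cells, 27.8% in 43 HE-YSA cells and 28.4% in 40 HE-YSP cells.

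Srsf4 moved between 2 transcripts with different first exons. Srsf4-202 (protein coding) held 64.0%, 81.2% and 87.5% of the gene, and Srsf4-201 held 35.4%, 16.6% and 10.8%. The level of Srsf4-202 was 60.7, 56.7 and 61.2 CPM, a log2 ratio of 0.10 and -0.01, and that of Srsf4-201 was 33.6, 11.6 and 7.5 CPM. By the same measure the estimate was divided evenly between the 2 transcripts in 16 of 22 HE-AGM cells, 4 of 11 HE-YSA cells and 2 of 11 HE-YSP cells with at least 5 counts. Without those cells Srsf4-201 held 17.3%, 7.31% and 5.00%, the coding difference to HE-YSA was -8.07 points and the calls against HE-YSA ended. The lncRNA Gm12992 shares 1447 identical bases with Srsf4 and had 7.81, 0 and 0 CPM, so reads within those bases could be divided between them.

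Srsf5, with the same domain layout as Srsf4 and Srsf6, held 71.2%, 45.9% and 38.7% of its counts on coding transcripts. Srsf5-206, a transcript of 886 bases with no defined coding sequence, held 6.86% in HE-AGM and 45.2% in HE-YSP, on 22.8 and 51.9 counts. These shares rest on few counts and carry the doubt about the Gm12966 copy given above. For Srsf3, its coding transcript Srsf3-202 had 30, 1 and 0 counts, which allows up to 5.5% of the gene in HE-YSP. The poison-exon transcript Srsf3-201 held 24.5%, 17% and 22.5%, a difference that was not called, and its level was 36.0, 7.5 and 8.7 CPM. Srsf3-205, annotated as retained intron, held 48.6%, 19.2% and 37.8%. Srsf1, Srsf2, Srsf7, Srsf9 and Srsf10 had no class share called in either comparison of HE-AGM with a YS population.

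Counted over the members, HE-AGM had 1 coding share higher and 1 lower than HE-YSA, against 13% and 9.27% of all genes tested, and 3 and 1 against HE-YSP, where 12.5% and 9.22% were. Among 8 members with a retained-intron isoform, 2 were higher and 0 lower against HE-YSA (8.79% and 5.9% of genes) and 3 higher and 1 lower against HE-YSP (8.39% and 5.47%). In the "other" class of 5 members, 0 were called against HE-YSA (4.33% of genes higher and 9.27% lower), and against HE-YSP 0 were higher and 1, Srsf5, was lower (4.37% and 9.92%). The members' summed counts were 69.2%, 59.3% and 60% coding, and 6.16%, 13.9% and 11.4% NMD. The retained-intron class held 21%, 23.9% and 25.4%. Over all genes with a class, HE-AGM minus HE-YSA came to 1.71 points for coding, 0.84 for retained intron and -3.11 for NMD. Over the members' summed counts the differences were 9.89, -2.81 and -7.76 points. Srsf6-201 alone had 46.0, 244 and 187 CPM of the members' 2610, 2310 and 2153 CPM. The summed NMD difference thus rests largely on that transcript and does not describe the members in general. Such sums also move with the level of each member. Srsf2, which is mostly coding, gave 1953 of 8688 member counts in HE-AGM but 409 of 4402 in HE-YSA. As a mean over members, the coding and NMD differences were smaller in size and the retained-intron one was positive. Srsf6, with an NMD difference of -33.4 points, weighs heavily in that mean. An unweighted mean over members is also not the same measure as the pooled shares of all genes. The part of level in the summed differences was not tested.

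**Figure D5:**
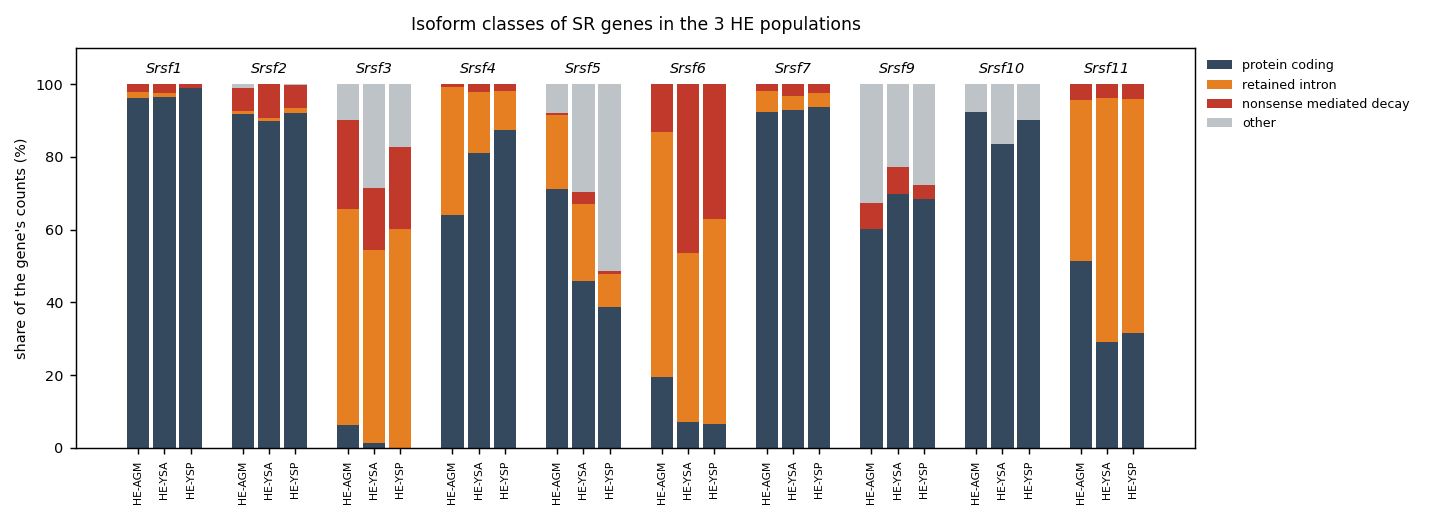
Share of each member's counts on protein-coding, retained-intron, NMD and other transcripts in the 3 HE populations, in percent of the gene's summed counts. Srsf6 shows an NMD share of 13%, 46.4% and 37.1%, and Srsf11 a coding share of 51.5%, 29.2% and 31.6%.

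Transcript length moved with the tissue. The mean annotated length over all counts was 1507, 1169 and 1162 bases, and 2044, 1735 and 1785 bases over the members' counts. Processed pseudogenes took 16.6%, 24.8% and 25.2% of all counts. Of the 46 member isoforms with at least 5% of their gene in an HE population, 5 held more of it and 3 less in HE-AGM than in HE-YSA, against 13.4% and 12.2% of all isoforms tested. Against HE-YSP 5 were higher and 5 lower, against 13% and 12%. The same 5 isoforms were higher in both comparisons, Srsf6-203, Srsf6-204, Srsf3-205, Srsf4-201 and Srsf11-202, and each spans 2110 bases or more. Those that were lower, Srsf6-201, Srsf11-218, Srsf4-202, Srsf11-209 and Srsf5-206, span 2257 bases or fewer. With transcripts under 1000 bases dropped, the Srsf6 NMD differences were -33.8 and -24.1 points. That cut keeps Srsf6-201 (1666 bases), Srsf6-204 (2897) and Srsf6-203 (3527), so it cannot address length for Srsf6. The part of length in these shares was not tested.

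HE-YSP and HE-YSA differed less. Only Srsf6 had a higher retained-intron share in HE-YSP (56.5% against 46.4%) and only Srsf5 a higher "other" share, where 1.93% and 1.63% of genes were called higher, and 0 members were lower in either class, against 2.09% and 1.11%. The Srsf6 difference was 10.1 points, just past the limit, and 3.85 points in run 3, and its call was kept in 8 of 17 alternative settings. In share of the gene, 3 isoforms, Srsf6-204, Srsf3-205 and Srsf5-206, were higher and 0 were lower, against 2.96% and 3.06% of isoforms.

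In level, the steps from early HE to blood held few calls among the members, with the exception of HE-YSP. From b2 to b3, 4 members were called higher and 0 lower, against 13.4% and 11.3% of 4278 genes. Srsf1 went from 97.5 to 157 CPM (log2 ratio 0.69, 0.28 to 1.10), Srsf2 from 181 to 281 (0.64, 0.34 to 0.94), Srsf4 from 54.1 to 86.5 (0.68, 0.12 to 1.25) and Srsf11 from 246 to 369 (0.59, 0.33 to 0.85). All 3 runs were higher in b3 for each of them. The stages differed as well: at E9, E9.5 and E10.5, b2 had 10, 2 and 13 kept cells and b3 had 6, 11 and 7. The part of stage in this step was not tested. From b3 to p2, Srsf9 was called higher (67.0 to 112 CPM, 0.74) and Srsf3 lower (46.5 to 29.2 CPM, -0.67, with an interval from -1.53 to 0.11), against 9.38% and 9.29%. In the other 4 steps 0 of the 10 members were called, against 7.84% of genes higher and 13.1% lower from c3 to c4, 8.14% and 12.3% from c4 to c5, 7.63% and 9.04% from a1 to a2, and 10.7% and 11.7% from a2 to p1. In class shares, Srsf9 had a higher coding share (61.6% to 73.8%) and a lower "other" share (31.9% to 20%) from c4 to c5, calls made for 4.25% and 1.75% of genes. For Srsf5, with the doubt about its copy, the "other" share was called higher from c3 to c4 (3.59% to 14.1%, against 2.05% of genes) and from b2 to b3 (43.4% to 58.5%, against 1.9%), and the retained-intron share from a1 to a2 (12.2% to 28.8%, against 1.81%). Endothelial markers fell and blood markers rose along every route, from 1463 to 270 CPM and from 137 to 816 CPM between b2 and p2.

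Other genes of the SR pathway were read from lists of kinases and phosphatases, of TRA2 and SR-related proteins, and of import, export and partner proteins. Among the kinases and phosphatases, which set the phosphorylation of the SR tail, HE-AGM had 3 of 11 tested higher and 1 lower than HE-YSA, and 4 and 1 of 10 against HE-YSP. The shares of all genes tested were 30.6% higher and 17.3% lower in the first comparison and 33.8% and 18.8% in the second, so these lists, of which the largest has 21 genes tested, are given as counts only. Clk2, a kinase of the SR tail, had 33.3, 14.2 and 6.58 CPM (log2 ratio 1.23 and 2.34). Ppp1cb, a catalytic subunit of protein phosphatase 1, had 97.0, 29.9 and 10.8 CPM (1.70 and 3.17). Dyrk1a, a related kinase, had 30, 15.2 and 4.79 CPM and was called only against HE-YSP. In the YS populations all 3 rested on 8 to 57 counts. Of the SR-related proteins 11 of 21 were higher and 3 lower against HE-YSA, and 8 and 3 of 21 against HE-YSP, with a median log2 ratio of 0.71 and 0.47, against 0.26 and 0.31 over all genes and the shares of all genes just given. Pnn (pinin), a protein of the exon junction and of cell contacts, went the other way with 16.8, 67.7 and 83.7 CPM (-2.01 and -2.32). Luc7l2, a U1-associated factor, had 300, 116 and 49.6 CPM and was called only against HE-YSP, since its runs against HE-YSA ranged from -2.49 to 3.65. Among the 3 partner proteins, 1 was higher and 0 lower in both comparisons, and this was Psip1, a chromatin protein that binds splicing factors, with 71.8, 14.4 and 23.3 CPM (2.31 and 1.62).

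Across the 9 clusters, the gene most like each member in log2(CPM + 1), out of 3262 with at least 500 counts, was Ahcyl for Srsf1 (r = 0.987), Snrpg for Srsf2 (0.980), Hnrnpl for Srsf3 (0.985), Trmt1 for Srsf4 (0.973) and Ubb-ps for Srsf5 (0.981). For Srsf6 it was Med8 (0.985), for Srsf7 Prps1l3 (0.985), for Srsf9 Fbxw2 (0.977), for Srsf10 Psmd1 (0.988) and for Srsf11 Adrm1 (0.938). The 9 points share libraries, runs and depth, and these values are descriptions.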

How the data were processed

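The authors basecalled the nanopore reads, trimmed adapters, removed chimeric reads, aligned them to GENCODE release 37 transcripts with minimap2 2.26 keeping up to 10 alignments per read, and estimated transcript abundance with NanoCount. These deposited estimated counts are neither normalized nor whole, because reads that fit several transcripts are divided. The deposited TPM values are the same estimates scaled to 1000000 per cell, with no length term. The submitters' notes also name R 4.3.0 and DESeq2 1.40.2.

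Cells were grouped by label and kept at 17595 or more counts (median minus 1 scaled MAD). Counts were summed per population, cluster or run and divided by the total (CPM). Intervals are 95% exact Poisson (levels), Clopper-Pearson (shares) and conditional binomial (ratios) intervals of rounded counts, and cover counting error only. With 1 sample per population no p-value was computed. Gene ratios needed at least 50 summed counts, and class and isoform shares at least 50 counts of the gene in both populations.

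The members and lists were chosen with earlier results of these data known. The text names the 10 members, at most 6 genes of the 3 lists (the largest absolute log2 ratios among those past 1.5-fold with at least 100 counts), isoforms with at least 5% of their gene, and the genes most like each member among those with at least 500 counts. Copies were found with blastn on the GENCODE M21 transcripts, and Mettl23, Gm12992 and the pseudogene copies were chosen after their values were seen. Calculations used Python 3.11.15, pandas 2.3.3, numpy 2.4.6 and scipy 1.17.1, with DESeq2 1.42.0 in R 4.3.3 only for size factors (estimates rounded first). The calls were tested on simulated whole counts, with changes planted only in genes with more counts than Srsf3, Srsf4, Srsf5 or Srsf10. That test therefore does not cover low counts or estimates divided between transcripts. The alternatives covered the library filter, TPM, size factors, thinning, single runs, clusters, stages, depth, fold limits, isoform limits, length and copies.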

Additional observations from a re-analysis of the deposited data

Results flagged for a closer look

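The processed pseudogene Srsf3-ps, which is not a member, held 216 CPM over all cells kept (2114 counts), above the limit of 0.306 CPM that a count of 0 allows. It was 276 CPM in c3, 398 in c4 and 294 in c5, and from 86.3 to 130 CPM in the 6 YS clusters, so all 3 AGM-side clusters were above every YS cluster, as they were for Srsf3 itself. Whether its reads come from the pseudogene or from Srsf3 was not tested. The annotated genes Srsf8 and Srsf12 had 0 counts over all cells kept, which allows up to 0.306 CPM.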

How the results depend on the processing

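Of 267 values of the comparisons under 24 alternatives, 4 of them chosen after seeing the data, 223 stayed within the spread over runs or, for counts of members, within 1.5 times. The counts of called members that moved were 2 (run 1 alone) and 3 (a 2-fold limit) in place of 5 for HE-AGM against HE-YSA, 7 (run 2 alone) in place of 4 against HE-YSP, and 2 (run 1 or run 2 alone) and 0 (late clusters only, or a 2-fold limit) in place of 1 for HE-YSP against HE-YSA. The log2 ratio of the members' sum to HE-YSA moved from 0.18 to 0.32 with DESeq2 size factors, 0.026 with counts outside processed pseudogenes, -0.0018 in run 2 and -0.040 at totals from 30000 to 60000; in run 2 it was -0.16 for HE-YSP instead of 0.28, and 0.16 for HE-YSP over HE-YSA instead of -0.10.

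For the members' coding share, the difference to HE-YSA (9.89 points) became 7.74 in run 2, 7.0 in early and 13.3 in late clusters, 1.56 with whole estimates only, 4.80 as a mean over members and 12.2 without Srsf3 and Srsf5. That to HE-YSP (9.15) became 12.7 in run 1, 5.02 with whole estimates and 3.75 as a mean, and HE-YSP minus HE-YSA (0.75) became 5.75 in run 3. The retained-intron difference to HE-YSA (-2.81) became 1.86 in run 1, 1.46 in early and -7.02 in late clusters, 3.12 with whole estimates and 2.52 as a mean, and that to HE-YSP (-4.38) became -2.53 in run 3, -7.19 with YS cells of E10.5, 0.86 with whole estimates, 2.96 as a mean and -6.63 without Srsf3 and Srsf5. Its HE-YSP minus HE-YSA value (1.57) became 7.99 in run 1. The NMD difference to HE-YSA (-7.76) became -9.56 with thinned cells, -9.33 in run 1, -2.21 with whole estimates and -3.46 as a mean, that to HE-YSP (-5.21) became -6.81, -3.89 in run 3, -2.39 and -1.98, and HE-YSP minus HE-YSA (-2.55) became -0.84 in run 2 and 0.18 with whole estimates. The causes were not tested. The members' retained-intron difference thus has no settled direction.

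Of 948 values of single genes, 815 stayed within the spread over runs. The sign was opposite to the reported value in 95, of which 1 had been called: the Srsf6 coding difference to HE-YSP, -0.34 at totals from 30000 to 60000. The rest belonged to differences that were not called. No paired analysis was possible because replicate numbers only name cells and no embryo is given. Depth was lower in the YS cells, where Srsf4, for example, reached 5 counts in 11 HE-YSA and 11 HE-YSP cells, so its shares per cell are coarse.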
